A study of Rattus norvegicus with 12 samples.

Results

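A set of 10 genes that break down heme and move iron was followed in rat sciatic nerve, dorsal root ganglia (DRG) and dorsal spinal cord after an injection of myelin basic protein peptide into the nerve. The 10 genes are Hmox1, Blvrb, Hp, Hpx, Cd163, Slc40a1, Slc11a1, Fth1, Ftl1 and Tfrc. They were taken as a fixed list, and their probes were found through the RefSeq accession of each probe; all 10 were on the array, among 15159 genes that could be named. In wild-type rats the injected nerve held 7.61-fold more signal of Hmox1 and of Hp than the contralateral nerve. The other 7 measured genes stayed within 2-fold by the brightest probe of each, but a second Tfrc probe gave a log2 ratio of -1.54. In nude rats Hmox1 was 3.33-fold and Hp 2.17-fold higher in the injected nerve and Tfrc was 2.34-fold lower, in a comparison that depended on how the arrays were scaled. The hemoglobin genes and Alas2, used as a measure of blood, were also higher in both injected nerves. In the DRG and the cord hemoglobin was above the contralateral nerves while Hmox1 was below them.

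Heme is the iron-holding group of hemoglobin. Free hemoglobin is bound by haptoglobin and taken up by macrophages through the receptor CD163, free heme is bound by hemopexin, and heme oxygenase 1 opens the ring to give biliverdin, carbon monoxide and iron. The iron is then kept in ferritin, made of heavy and light chains, or leaves the cell through ferroportin, while the transferrin receptor brings iron in from the blood. In injured nerve macrophages clear myelin and blood, and in the central nervous system microglia, oligodendrocytes and neurons all handle iron.

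The RNA was measured on 12 single-colour Agilent arrays, 1 array for each condition, each with RNA pooled from 3 female rats of 8 weeks. The athymic nude rats (Hsd:RH-Foxn1rnu), which lack mature T cells, were taken 7 days after the injection, and the wild-type Sprague-Dawley rats 12 days after it. Every rat received MBP84-104 (50 µg in 5 µl) in the left sciatic nerve, and the arrays held the injected nerve and the PBS-treated right nerve, the left and the right DRG, and the left dorsal cord at the lumbar enlargement and above it. The study's own text names a single time for both rat types, heterozygous controls and a group size other than 3. It describes the profiled tissue as collected from the rats of its behavioural tests. The labels of the arrays were followed here. By these labels rat type, strain and day cannot be told apart. With 1 array per condition there is no replicate error, no test was possible, and every value describes these pools alone.

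Levels below are log2 signals relative to the median of the array, and ratios are log2 differences of the injected minus the contralateral side, or of the lumbar cord minus the cord above it. A gene was measured in a comparison when its probe passed the background flag on 1 or both of its arrays, and it was called changed at 2-fold, a log2 ratio of 1 or more in size. The ganglion marker Scn10a, a sodium channel of pain-sensing neurons, lay between 5.24 and 5.38 in the DRG and was not well above background elsewhere, and the oligodendrocyte gene Mog lay between 6.05 and 6.69 in the cord, so both tissues carried their markers. The Schwann cell gene Prx lay between 4.79 and 6.58 in the nerve. The array of the injected nude nerve was the dimmest, with a median probe signal of 15.4 against 49.0 for its contralateral nerve, and the median log2 ratio of all genes in that pair was -0.38. Of all genes measured there, 708 were higher and 1280 lower, and this split turned to 1123 and 530 with scaling to the 75th percentile, 813 and 641 with quantile normalization, 885 and 851 with cyclic loess and 27 and 4071 with normexp, a background correction that models each spot as signal plus noise. For the heme and iron genes and the main lists, ratios in the nude nerve are therefore also given relative to the median of all genes.

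Promoter sequence was at hand for 5 of the 10 genes, Blvrb, Hpx, Cd163, Slc40a1 and Tfrc, from RefSeq with the build GRCr8. The 250 bases before the start of transcription are shown for Blvrb and Cd163, whose levels were highest in the nerve, and for Tfrc, whose level was highest in the cord, so that the motifs searched can be seen in place. Each is read 5′ to 3′ along the gene's strand, and capitals mark a match on either strand. They lie at chr1:91866008-91866257 on the plus strand (Blvrb), chr4:158770524-158770773 on the plus strand (Cd163) and chr11:81690319-81690568 on the minus strand (Tfrc).
Blvrb: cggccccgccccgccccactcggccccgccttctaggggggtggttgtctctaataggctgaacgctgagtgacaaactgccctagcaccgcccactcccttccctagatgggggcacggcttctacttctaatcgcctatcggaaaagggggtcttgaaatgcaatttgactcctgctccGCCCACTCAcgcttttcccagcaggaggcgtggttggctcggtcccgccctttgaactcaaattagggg
Cd163: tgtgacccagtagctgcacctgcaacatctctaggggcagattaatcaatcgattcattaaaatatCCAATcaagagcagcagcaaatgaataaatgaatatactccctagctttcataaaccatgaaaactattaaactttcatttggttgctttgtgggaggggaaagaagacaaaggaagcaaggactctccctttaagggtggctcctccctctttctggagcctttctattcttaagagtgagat
Tfrc: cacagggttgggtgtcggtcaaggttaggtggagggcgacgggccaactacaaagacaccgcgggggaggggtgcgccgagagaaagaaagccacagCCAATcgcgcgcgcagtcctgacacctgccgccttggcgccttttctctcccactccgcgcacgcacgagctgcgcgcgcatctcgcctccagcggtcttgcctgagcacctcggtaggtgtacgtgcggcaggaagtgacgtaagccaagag
The capitals in Blvrb are the antioxidant response core, TGANNNNGC, read on the other strand, with its first base 69 bases before the start. This core is the site that Nrf2, a regulator of Hmox1 and of other stress genes, is known to bind, and 34.7% of 33469 promoters of this length held a match, those of Blvrb and Hpx among the 5 genes. The capitals in Cd163 and Tfrc are a CCAAT box, 184 and 153 bases before the start, which 34.0% of promoters held. The AP-1 site TGAGTCA, present in 4.05% of promoters, and the E-box CACGTG, present in 5.59%, were found in none of the 5. A match is a description of letters, and shares of this size make it common.

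**Figure D1:**
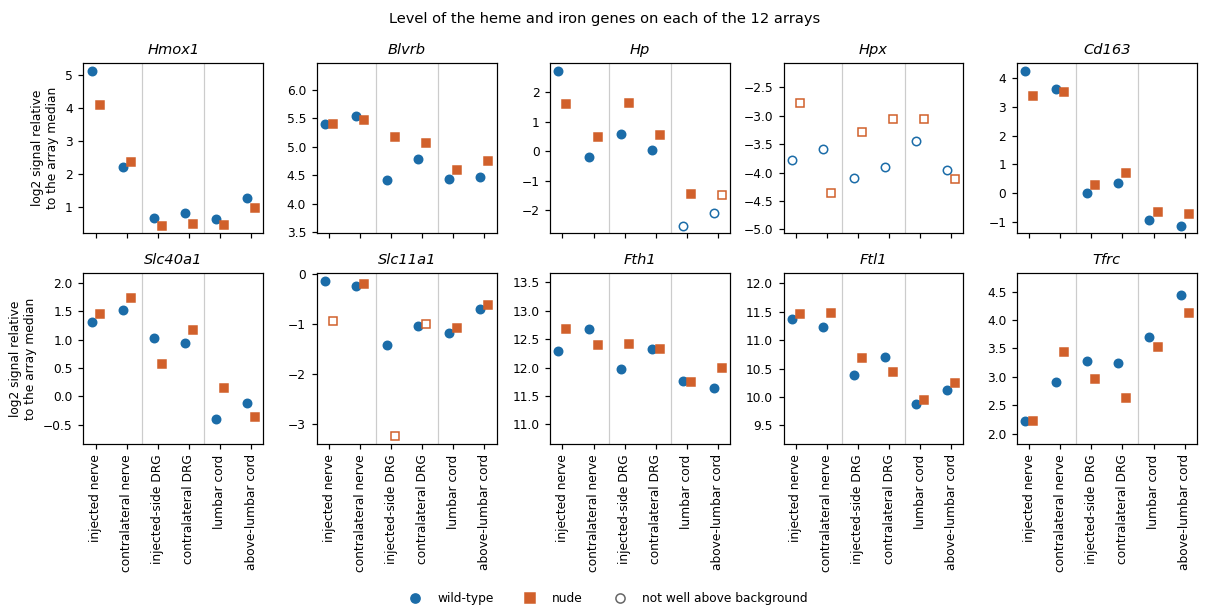
Level of each of the 10 genes on each array, as log2 signal relative to the array median, by tissue and side; circles are wild-type and squares nude pools, and open symbols are probes not well above background. Hmox1 and Hp are highest in the injected wild-type nerve, Cd163 is higher on the 4 nerve arrays than elsewhere, Tfrc is highest in the cord, and Hpx is well above background on none.

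Hmox1, the inducible heme oxygenase that opens the heme ring, had, with Hp, the largest nerve ratio of the 10 genes in wild-type rats and the largest in nude rats. In wild-type rats its level was 5.14 in the injected and 2.21 in the contralateral nerve. The nude nerves stood at 4.11 and 2.37. The contralateral nerves of both rat types lay close together, with a nude minus wild-type difference of 0.16, and the injected nude nerve lay 1.03 below the injected wild-type nerve. The log2 ratio was 2.93 in wild-type rats, rank 23 of 10191 genes, and 1.73 in nude rats, rank 125 of 9445. The probe was spotted 10 times on each array, and the error of the ratio over these spots was 0.04 for wild-type and 0.03 for nude nerve, which covers technical spread within an array only. Before scaling, the Hmox1 signal was 1271 in the injected and 153 in the contralateral wild-type nerve, but 265 and 254 in the nude nerves, so that the nude ratio came from the difference between the array medians. Relative to all genes the nude ratio was 2.12. It was 0.56 after normexp, under which the median of all genes was -0.87.

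Away from the nerve Hmox1 was low and moved little. The wild-type DRG stood at 0.68 on the injected side and 0.82 on the other, and the nude DRG at 0.44 and 0.48. In the cord wild-type pools stood at 0.65 at the lumbar enlargement and 1.29 above it, and nude pools at 0.47 and 0.96. The cord ratios were -0.64 and -0.50, lower at the lumbar level in both rat types, and the DRG ratios were -0.14 and -0.04. All 4 nerve arrays lay above all 8 other arrays, also the contralateral nerves, which, as the mean of both rat types, were 3.12-fold above the contralateral DRG and 2.24-fold above the upper cord. Blvrb, a biliverdin reductase that acts on the biliverdin this step yields, was also above all other tissues in the nerve, at 5.40 to 5.54 against 4.41 to 5.18 in the DRG and 4.43 to 4.76 in the cord. It did not share the difference between the nerves, where its ratio was -0.13 for wild-type rats and -0.07 for nude rats. The nude ratio of Blvrb was 0.31 relative to all genes. A second Blvrb probe gave -0.04 and -0.57.

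Hp, the gene of haptoglobin, which the liver makes and fat tissue and neutrophils are also known to express, was the other gene far higher in the injected nerve. Its level was 2.72 in the injected and -0.20 in the contralateral wild-type nerve, and 1.60 and 0.48 in the nude nerves. The ratio was 2.93 in wild-type rats, rank 24, and 1.12 in nude rats. Relative to all genes the nude ratio was 1.50. Before scaling, the Hp signal was 239 in the injected and 28.7 in the contralateral wild-type nerve. In the nude nerves it was 46.5 and 68.3, lower in the injected one, so the positive nude ratio came from the difference between the array medians. After normexp the ratios were 1.57 in wild-type rats, where that of Hmox1 was 2.57, and 0.28 in nude rats. Unlike Hmox1, Hp was also higher in the injected-side DRG. The levels there were 0.57 against 0.03 in wild-type rats and 1.62 against 0.54 in nude rats, with ratios of 0.54 and 1.08, and the nude ratio was 0.44 after normexp. In the cord Hp was well above background on 1 array alone, the nude lumbar cord. The nude cord ratio was 0.06, but the 2 spots of the upper cord array had an SD of 1.85 on the log2 scale. The sign of this ratio is therefore not settled. Of 7 hepatocyte genes, 1 was measured in the wild-type nerve, Fgb, at least 1.75-fold higher, and none in the nude nerve. In the DRG 2 were measured, and Ttr had a ratio of 1.29 for wild-type DRG and 1.11 for nude DRG, on the side where Hp was also higher, while Serpina1 was at 0.03 and -0.06. The summed hepatocyte level lay between 0.56 and 0.93 in the nerve and between 1.93 and 3.64 in the DRG, and Apoa1 and Apob were well above background on no array. The part of these genes' source in the Hp values was not tested.

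Hpx, the gene of hemopexin, which the liver makes and which binds free heme, was well above background on none of the 12 arrays, with signals from 2.24 to 6.74. No ratio is given for it, and 9 of the 10 genes remain for the nerve comparisons.

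Cd163, the macrophage receptor for haptoglobin bound to hemoglobin, was a gene of the nerve as a tissue more than of the injection. Its level was 4.25 in the injected and 3.60 in the contralateral wild-type nerve. The injected nude nerve stood at 3.37 and its contralateral nerve at 3.50. In the cord it was -0.94 and -1.13 in wild-type and -0.65 and -0.73 in nude rats, and in the DRG it was at most 0.69. The nerve arrays lay above and the cord arrays below all others, and the contralateral nerve was 8.20-fold above the contralateral DRG and 22.4-fold above the upper cord. The nerve ratios were 0.64 in wild-type and -0.13 in nude rats, and the DRG ratios were -0.35 and -0.41, none of them at 2-fold. Set against all genes, the nude nerve ratio was 0.25, with the opposite sign.

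The genes that let iron out of cells and out of phagosomes stayed within 2-fold in every comparison in which they were measured. Slc40a1, ferroportin, was highest in the nerve, at 1.31 in the injected and 1.51 in the contralateral wild-type nerve and at 1.45 and 1.74 in the nude nerves. Its nerve ratios were -0.21 and -0.29, and a second probe gave -0.51 and -0.60. Relative to all genes the nude ratio of the probe used was 0.10, with the opposite sign. In the nude rats its DRG ratio was -0.59 and its cord ratio 0.50, and in the wild-type rats these were 0.10 and -0.29. Slc11a1, an iron and manganese transporter of the phagosomes of macrophages, was dim, and well above background on 9 arrays. It was -0.14 in the injected and -0.23 in the contralateral wild-type nerve, a ratio of 0.09. In the nude rats it was not well above background in the injected nerve and at least 1.34-fold lower there before the shift of all genes was taken off, and it was not measured in the DRG.

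The transcripts of ferritin, the store of iron, stayed within 2-fold in all comparisons by the main scaling. Fth1, the heavy chain, which oxidizes iron for storage, was 12.28 in the injected and 12.69 in the contralateral wild-type nerve, and 12.67 and 12.39 in nude rats. The ratios of -0.40 and 0.28 had opposite signs, but the positive sign in nude rats was lost after quantile normalization, at -0.50, and with the authors' normalized values, at -0.85. A second Fth1 probe gave -0.60 in the wild-type nerve. Ftl1, the light chain, was 11.37 in the injected and 11.23 in the contralateral wild-type nerve, and 11.46 and 11.47 in the nude nerves, and its nerve arrays lay above and its cord arrays below all others. The nude nerve ratios relative to all genes were 0.67 for Fth1 and 0.38 for Ftl1. After normexp they were -1.21 for Fth1 and -1.20 for Ftl1, as that of Blvrb was -1.28, beside the median of -0.87 for all genes. Ferritin genes are known to have many near-identical copies, and probe sequences were not searched, so these values may hold signal of copies.

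Tfrc, the transferrin receptor, which takes up iron, ran the other way. Its level was 2.22 in the injected and 2.92 in the contralateral wild-type nerve, and 2.21 and 3.44 in the nude nerves. In the cord wild-type pools stood at 3.71 at the lumbar level and 4.43 above it, and nude pools at 3.53 and 4.12. All 4 cord arrays lay above all others, and the lower of both levels stood in the injected nerve and in the lumbar cord of both rat types. The nerve ratios were -0.70 in wild-type and -1.22 in nude rats, and the cord ratios -0.72 and -0.59. The nude nerve ratio was -0.84 relative to all genes and passed 2-fold in 5 of 11 alternative settings. A second Tfrc probe gave -1.54 in the wild-type nerve, so both probes gave the same sign but only the second passed 2-fold. The DRG ratios were 0.03 and 0.33 by the probe used, but the second probe gave -0.84 in the nude DRG, with the opposite sign.

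Across the 10 genes, by the brightest probe of each, the wild-type nerve had 2 genes higher of 9 measured, against 4.69% of all genes. None was lower, against 4.09%. The nude nerve had 2 higher, against 7.50%, and 1 lower, against 13.6%. Relative to the median of all genes the nude nerve kept the 2 higher and had none lower. Of all 9445 genes, 1271 were then higher and 397 lower. After normexp none was higher and 4 were lower, namely Blvrb, Fth1, Ftl1 and Tfrc. Of all 9321 genes measured after normexp, 27 were higher and 4071 lower. In the DRG none was higher or lower in wild-type rats, against 0.490% and 0.517% of all genes, and in nude rats 1 of 8, Hp, was higher, against 0.684%, and none lower, against 0.389%. In the cord none changed in wild-type rats, against 0.914% higher and 0.833% lower, nor in nude rats, against 0.778% and 0.590%. The median ratio of the measured genes was 0.09 in the wild-type nerve, where that of all genes was -0.05, and -0.07 in the nude nerve, where that of all genes was -0.38. The changes in the nerve thus lay in Hmox1, Hp and Tfrc, with the middle of the group near 0.

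By tissue, 5 of the 9 genes with a level had all nerve arrays above the other tissues, which held for 18.0% of all genes, and none had them below, against 6.92%. These were Hmox1, Blvrb, Cd163, Slc40a1 and Ftl1. None had all DRG arrays above, against 2.92%, or below, against 8.23%. In the cord 1 gene, Tfrc, was above, against 20.0%, and 4 genes, Hp, Cd163, Slc40a1 and Ftl1, were below, against 19.2%. The Hp arrays of the cord were mostly not well above background. Fewer cells of a type and less RNA per cell cannot be told apart in such tissue RNA.

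**Figure D2:**
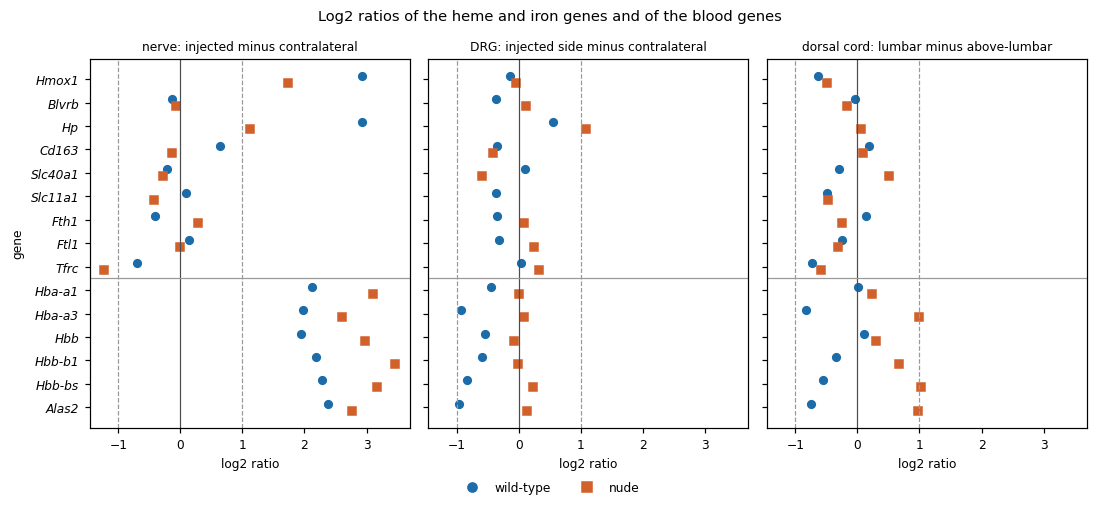
Log2 ratios of the 9 measured heme and iron genes (above the line) and of the hemoglobin genes and Alas2 (below the line) in the nerve, the DRG and the dorsal cord; circles are wild-type and squares nude rats, and dashed lines mark 2-fold. Only Hmox1 and Hp among the 9 genes lie beyond 2-fold with the blood genes in both nerves, and 4 blood genes lie to the right in nude and to the left in wild-type cord.

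The measure of blood was made of 5 hemoglobin genes, Hba-a1, Hba-a3, Hbb, Hbb-b1 and Hbb-bs, and of Alas2, the enzyme that starts heme synthesis in red cell precursors. All 6 were at least 2-fold higher in both injected nerves, with a median ratio of 2.15 for wild-type rats and 3.04 for nude rats, 3.42 relative to all genes. Hba-a1, an alpha chain of hemoglobin, was 12.43 in the injected and 10.32 in the contralateral wild-type nerve, and 13.17 and 10.07 in the nude nerves. Alas2 was 4.18 and 1.81 in wild-type and 4.47 and 1.70 in nude rats. Other red cell genes moved with them. Ahsp, which stabilizes alpha chains, had ratios of 1.57 and 2.32, and Slc4a1, the anion exchanger of the red cell membrane, was at least 2.21-fold higher in the wild-type nerve. The part of blood in the Hmox1 and Hp ratios was not tested.

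By the main scaling the order of the rat types was not the same for blood as for Hmox1 and Hp. Of the 10 genes, 2 had a wild-type nerve ratio at least 2-fold above the nude ratio, by 1.20 for Hmox1 and 1.81 for Hp, which held for 5.07% of all genes, and none had one at least 2-fold below, which held for 5.53%. Relative to the medians of all genes these differences were 0.86, under 2-fold, for Hmox1 and 1.48 for Hp. For the blood genes the difference by the main scaling was negative throughout, from -0.39 for Alas2 to -1.28 for Hbb-b1. This sign depended on the processing. Over 11 settings the lowest nude nerve ratio of Alas2 was 1.33, below its lowest wild-type ratio of 1.97. Those of Hbb-bs were 1.98 and 2.10, and Hba-a1, Hba-a3 and Hbb also had the nude minimum below the wild-type one. Only Hbb-b1 did not, at 2.31 and 2.11. In the DRG and the cord no heme or iron gene had ratios 2-fold apart between the rat types, against 1.90% above and 1.73% below in the DRG and 0.605% and 1.12% in the cord. None of these differences could be tested.

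Between tissues the arrays with the most hemoglobin were not those with the most Hmox1. Hba-a1 lay between 12.59 and 13.58 in the DRG and between 11.96 and 12.50 in the cord, beside 12.43 and 13.17 in the injected nerves, and the contralateral nerves were the lowest arrays. The cord of each rat type lay below its own injected nerve. Alas2 was 5.41 to 7.45 in the DRG and 4.21 to 5.60 in the cord, against 1.70 to 4.47 in the nerve. Hmox1 was at most 1.29 in the DRG and the cord, and the contralateral nerves, lowest in hemoglobin, held more Hmox1 than any of these arrays. The part of blood in these levels was not tested. In the nude cord the median of the blood genes was 0.82 higher at the lumbar level, with Hbb-bs at 1.02, while Hmox1 was -0.50 and Cd163 0.09.

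**Figure D3:**
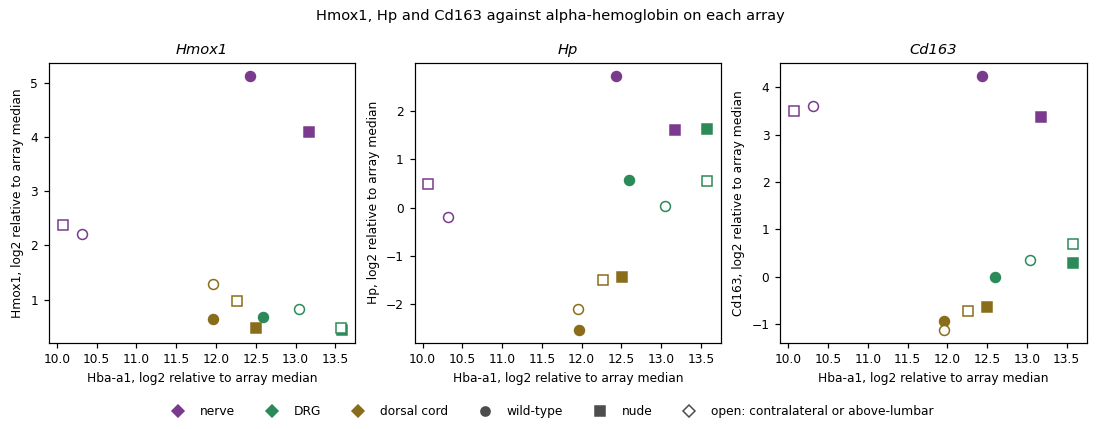
Level of Hmox1, Hp and Cd163 (vertical axes) against the level of the hemoglobin gene Hba-a1 (horizontal axes) on the 12 arrays, all as log2 signal relative to the array median; colours are tissues, circles wild-type, squares nude, and open symbols the contralateral or above-lumbar arrays. Within the nerve Hmox1 is higher on the 2 arrays with more hemoglobin, while the DRG and cord arrays, with Hba-a1 between 11.96 and 13.58, have Hmox1 no higher than 1.29.

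The counts for the wider set of heme and iron genes stand beside 4.69% of all genes higher and 4.09% lower in the wild-type nerve and 7.50% and 13.6% in the nude nerve. None of 8 genes of heme synthesis changed 2-fold in the wild-type nerve, and 1 of 7 was lower in the nude nerve, Cpox, which makes protoporphyrinogen, at -1.23. Of other genes of heme breakdown and transport, 8 were measured and none changed in wild-type rats, and 1 was lower in nude rats, Flvcr2, a transporter of the feline leukemia virus receptor family, at -1.16. With the shift of -0.38 in all genes of the nude nerve taken off, neither Cpox nor Flvcr2 passed 2-fold. Hmox2, the constitutive heme oxygenase, had ratios of 0.02 and -0.30, so that of both forms only the inducible one passed 2-fold. Slc48a1, which carries heme out of lysosomes, was at -0.59 and -0.63.

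Among other genes of iron uptake, storage, export and control, 1 of 19 was higher in wild-type nerve and 1 of 16 in nude nerve. It was the same gene, Slc39a14, a zinc transporter that also takes up iron that is not bound to transferrin. It had ratios of 2.76 and 2.12, with levels from -1.02 to 1.75 in the nerve. The transferrin gene Tf stood at 0.09 and -0.69 and ceruloplasmin, Cp, which oxidizes iron on its way out, at 0.57 and -0.05. Outside the nerve 2 genes of this list passed 2-fold and were named after their values were seen. Hamp, the gene of hepcidin, which closes ferroportin, stood at 1.18 on the log2 scale in wild-type DRG and was at least 2.58-fold higher in the nude one, and Steap4, a metalloreductase, had log2 ratios of 1.66 and 1.87 in the cord.

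Hmox1 is a known target of Nrf2. Of 9 other Nrf2 targets measured, none was 2-fold higher in either nerve. In the wild-type nerve 1 was lower, Me1, the cytosolic malic enzyme, at -1.54, and in the nude nerve 3 were lower, Me1 at -2.08, the cystine transporter Slc7a11 at -1.94 and the quinone reductase Nqo1 at -1.45. Txnrd1, thioredoxin reductase, had the highest ratios of the list, at 0.93 and 0.49.

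**Figure D4:**
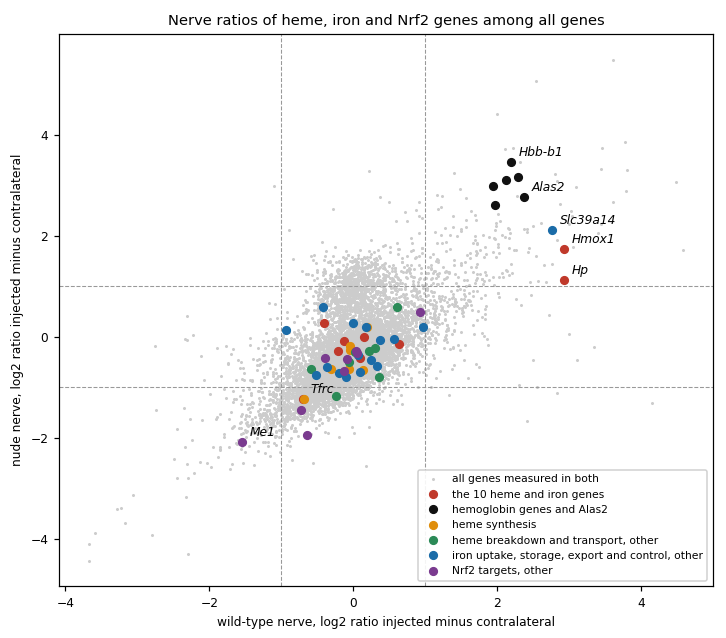
Log2 ratio in the wild-type nerve (horizontal axis) against that in the nude nerve (vertical axis) for all genes measured in both (grey) and for the lists of heme, iron and Nrf2 genes (colours); dashed lines mark 2-fold. Hmox1 (2.93 and 1.73), Hp (2.93 and 1.12), Slc39a14 (2.76 and 2.12) and the blood genes stand apart at the upper right, and Me1 (-1.54 and -2.08) at the lower left.

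Marker genes of several cell types differed between the same arrays. Of 14 macrophage genes measured, 5 were higher in the wild-type nerve, with a median of 0.67 and Gpnmb at 2.76, Lgals3 at 1.42 and Cd68 at 1.27. In the nude nerve 1 was higher, Gpnmb at 1.44, with a median of 0.19. Relative to all genes the medians were 0.72 and 0.58. The summed macrophage level was 12.21 in the injected and 11.35 in the contralateral wild-type nerve and 11.80 and 11.60 in the nude nerves, and Marco, of this list, was well above background nowhere. The part of macrophages in the Hmox1 and Cd163 values was not tested.

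Neutrophil genes were higher in the nerves and, in nude rats, in the DRG. The log2 ratio of S100a9 was 3.44 in wild-type nerve and 2.23 in nude nerve, and S100a8 was at least 12.2-fold higher in wild-type nerve and had a ratio of 2.67 in nude nerve. In the nude DRG, where the ratio of Hp was 1.08, those of S100a8 and S100a9 were 2.02 and 1.66, and in the wild-type DRG, where that of Hp was 0.54, they were -0.13 and -0.04. Of the 8 neutrophil genes on the array, 3 of 4 measured were higher in the wild-type nerve and 2 of 3 in the nude nerve. The summed neutrophil level ranged from 2.28 to 4.80 in the nerve, from 5.59 to 7.37 in the DRG and from 1.18 to 3.66 in the cord, and the granule gene Mmp8 was well above background nowhere. Fat cell genes were lower in the injected nerves, 5 of 6 measured in wild-type rats and 4 of 5 in nude rats, with the adiponectin gene Adipoq at -3.06 and -3.12, while in the nude DRG 2 of 4 were higher. Relative to all genes the nude nerve medians were 2.61 for neutrophils and -1.70 for fat cells. The part of these cells in the Hp and Hmox1 values was not tested.

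Muscle genes had medians of opposite sign in the nerves, at 1.33 in wild-type and -1.11 in nude rats. The nude median was -0.72 relative to all genes. Of 9 muscle genes measured, 6 were higher after injection in wild-type rats, against 4.69% of all genes, with Myl11 at 4.15. In the nude nerve 4 of 7 were lower, against 13.6% of all genes. With the shift of -0.38 in all genes taken off, none of these 4 passed 2-fold. In the nude DRG 7 of 8 were higher, and their median was 2.12. In the nude cord, where the blood genes had a median of 0.82, 5 of 8 muscle genes were higher, with a median of 1.39. Myelinating Schwann cell genes were lower in the injected nerves, by medians of -1.10 and -1.58, the latter -1.19 relative to all genes, and higher in the lumbar than in the upper cord, by 2.67 and 2.22. Their part in the lower cord ratios of Hmox1 and Tfrc was not tested. Of 3 microglia genes measured, 1 was higher in the nude nerve, Cx3cr1 at 1.53, and none in the wild-type nerve, where it was -0.56. Endothelial genes had medians of 0.09 and 0.03, with Pecam1 at 0.97 and 0.73, and 1 gene, Cdh5, passed 2-fold in the nude nerve, at 1.12, and was 0.09 in the wild-type nerve. Of the oligodendrocyte genes 1 of 4 measured was lower in the wild-type nerve, and none of the 1 measured in nude rats. Of 4 genes of sensory neurons the wild-type nerve had 1 higher and 1 lower, and the nude nerve 1 higher and 3 lower. These nude nerve counts were made before the shift of all genes was taken off.

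**Figure D5:**
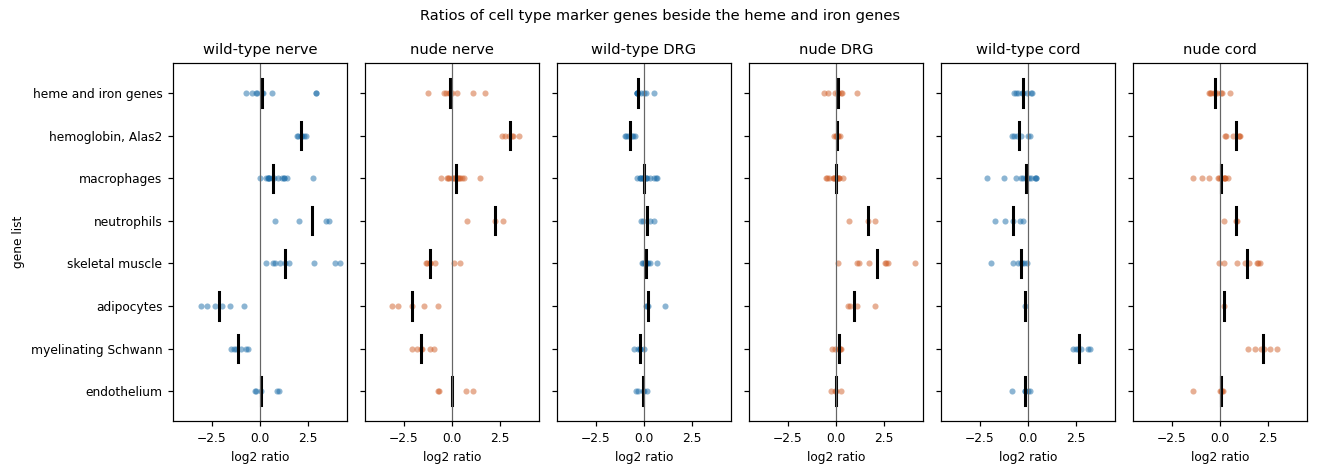
Log2 ratios of single genes (points) and their medians (bars) for the heme and iron genes, the blood genes and 6 cell type lists in the 6 comparisons; wild-type comparisons are blue and nude ones orange. Blood and neutrophil genes lie to the right in both nerves, fat cell and myelinating Schwann cell genes to the left, and the median of the heme and iron genes lies between -0.32 and 0.10.

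The 3 genes whose 6 ratios were nearest to those of Hmox1, by root mean square difference over 8593 genes measured in all comparisons, were Upp1 at 0.33, Prg4 at 0.38 and Crabp2 at 0.39 on the log2 scale. Upp1, uridine phosphorylase, had nerve ratios of 3.05 and 1.79. The nearest to Cd163 were Sap30bp, Ptpro and Gtpbp8, at 0.11 to 0.12, and to Slc40a1 Pde5a, Tmtc3 and Zfp472, at 0.14 to 0.16. All 6 ratios of Cd163 and of Slc40a1 were under 2-fold.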

How the data were processed

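RNA of 12 pools of 3 rats was labelled with Cy3 and hybridised to Agilent rat arrays, 1 array per condition. Per the file headers the authors extracted intensity values with Feature Extraction 10.7.3.1 (10.5 in the submitters' processing notes), which takes off the local background and evens out trends within an array, without scaling between arrays. The deposited log2 values, normalized by the authors in GeneSpring GX, were used as an alternative. The other deposited columns are flags of 0 or 1 that the authors' software set for each spot. No spot was saturated.

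Flagged outlier spots were dropped, log2 signals of a probe's spots were averaged and the array median was subtracted. A probe was well above background on an array when every used spot was, and signals were raised to the lowest such signal of the array. Of 30367 probes 18006 were named through RefSeq accessions (GRCr8), giving 15159 genes, and the brightest probe of a gene was used. A ratio with only 1 array well above background was kept as a bound where its sign allowed one. The summed level of a list is the log2 of its genes' summed signals. The number of arrays, 1 per condition, limits the precision, and the methods' test could not be run. Slide 1 held all 6 nude arrays and 2 arrays of wild-type nerve, and slide 2 the other 4, so in DRG and cord the slide cannot be told apart from rat type. The method was tested on simulated data.

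The 10 genes, the lists and the comparisons were chosen with earlier results of these data known. Named were all 10 genes, the blood genes, genes of the other heme, iron and Nrf2 lists changed 2-fold in a nerve comparison or else the largest, up to 3 genes per cell type list by wild-type nerve ratio, and the 3 genes nearest in pattern to Hmox1, Cd163 and Slc40a1; a few more were named after their values were seen. Normexp (offset 50) was run on the median spot signal in place of the planned mean, which was not used here. The work used Python 3.11.15, numpy 2.4.6, pandas 2.3.3, matplotlib 3.10.9, R 4.3.3 and limma 3.58.1.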

Additional observations from a re-analysis of the deposited data

Results flagged for a closer look

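Of the 6 blood genes, 3 in the DRG and 4 in the cord had ratios of opposite sign in wild-type and nude rats that differed by at least 2-fold. In the DRG the wild-type minus nude difference was -1.03 for Hba-a3, -1.07 for Hbb-bs and -1.08 for Alas2. In the cord it was -1.82 for Hba-a3, -1.01 for Hbb-b1, -1.57 for Hbb-bs and -1.73 for Alas2. The other blood genes differed by less than 2-fold, from -0.45 to -0.57 in the DRG and by -0.23 and -0.21 in the cord. All these counts and values came from the brightest probe of each gene. A second Hba-a1 probe had a cord ratio of -0.75 for the wild-type pools but 0.94 for the nude pools. A second Hbb probe had -0.94 for the wild-type pools but 1.07 for the nude pools. Both probes thus gave opposite signs over 2-fold apart, so the cord count of 4 depended on the probe used. With 1 array per condition these differences were not tested, and slide, day and strain cannot be told apart from rat type. Over the same arrays the Hmox1 ratios differed by -0.10 in the DRG and -0.14 in the cord.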

How the results depend on the processing

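Of 12 alternatives run, 11 were planned and 1, well above background on at least 0.5 of the spots, was chosen after seeing the data. In the 3 wild-type comparisons no count of heme and iron genes and no median of the blood genes moved by over 1.5 times. Within that limit Tfrc in the wild-type nerve ranged from -1.12 to -0.52 over 11 settings, and so passed 2-fold in some. In the nude nerve a 3-fold threshold left 1 gene, and normexp gave a blood median of 1.88 and turned the 3 calls, 2 higher and 1 lower, into 4 lower. Under normexp 4071 of all 9321 genes were lower there. In the nude DRG the count of 1 became 0 with normexp, 0 at 3-fold and 2 with no filter and no floor, and in the nude cord it became 1 with no filter and no floor. Hmox1 in the wild-type nerve kept its call in 11 of 11 value settings, from 2.57 to 3.00, as did Hp, from 1.57 to 3.00, and in the nude nerve each kept it in 10 of 11. The cause of these shifts was not tested. No paired analysis was possible because each condition has 1 array, and no array could be left out. Depth here is signal over background: 59.5% of spots were well above background on the dimmest array, and the dim gene Slc11a1 has a bound in place of a ratio in the nude nerve.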
